A study of Bos taurus with 48 samples.

Results

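ISG15, the small ubiquitin-like protein encoded by an interferon-stimulated gene, and the enzymes that attach it to other proteins and take it off again were examined in bovine endometrium. A probe was taken as a member where its gene name, or the symbol in the last brackets of its description, was ISG15, UBA7 (formerly UBE1L), UBE2L6, USP18, HERC5 or HERC6. By name, 5 of the 21475 probes on the array qualified and covered 5 genes, and 2 more were added because their RefSeq accession or gene number belongs to USP18 or HERC5, which gave 7 probes for the 6 genes. The 44 samples were the caruncular endometrium, the projections to which the placenta attaches, and the gland-rich intercaruncular endometrium of 22 lactating Holstein-Friesian cows with synchronised cycles, slaughtered at day 17 of the cycle. Of these cows, 12 were pregnant after transfer of a grade 1 blastocyst on day 7 and 10 were cyclic and received no embryo. Among the pregnant cows the labels give 7 large embryos (over 20 cm and over 75 mg) and 5 small ones (under 20 cm and under 40 mg), and 6 fertile and 6 sub-fertile animals, of which 3 fertile and 2 sub-fertile cows carried the small embryos. Cows are called P1 to P12 (pregnant) and C1 to C10 (cyclic) in the order of their label numbers. The fertility label belongs to the cow, and its criteria are not given in the labels. Each Cy5-labelled sample was hybridised with a Cy3-labelled pool of all samples, so every level below is a log2 ratio of the sample to that pool for 1 probe, and levels of different probes are not compared.

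ISG15 is made as a precursor and, once trimmed, is joined to lysines of target proteins by a chain of enzymes that parallels ubiquitination. UBA7 is the activating enzyme (E1), UBE2L6 is the conjugating enzyme (E2), and HERC5 in humans and HERC6 in mice act as the main ligases (E3). USP18 removes ISG15 from its targets and also dampens signalling at the type I interferon receptor. In ruminants the trophoblast of the elongating embryo secretes interferon tau, a type I interferon that acts on the endometrium around the time of pregnancy recognition, and ISG15 is a well-known endometrial response gene.

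The HERC probes need care, because their array names and present gene numbers do not match. The probe with the number LOC514373 carries no HERC symbol in its array description, but that number belongs to HERC5 in the RefSeq annotation of assembly ARS-UCD2.0. The probe LOC527520 is described on the array as HERC5, but its gene number belongs to HERC6 in that annotation. The probe LOC513540 is described as HERC6, transcript variant 2, and its gene number had no match. HERC5 and HERC6 are neighbouring genes on chromosome 6 in ARS-UCD2.0, and the other 4 members lie on 4 other chromosomes. The latter pair of probes is therefore called by its LOC numbers here. Of the 7 probes, 6 were matched to RefSeq. The sequences of the ISG15 probe and of the probes LOC514373 and LOC513540 are shown, because the ISG15 values lead the results and the HERC-named probes behaved differently from one another. They are as listed by the study, written 5′ to 3′, and capitals mark the longest run of bases shared with another member probe in either orientation.
ISG15: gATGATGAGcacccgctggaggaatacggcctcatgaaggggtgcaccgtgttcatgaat
LOC514373: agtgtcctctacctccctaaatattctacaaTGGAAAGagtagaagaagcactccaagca
LOC513540: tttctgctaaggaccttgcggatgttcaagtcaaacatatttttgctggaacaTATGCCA
Among the 7 probes, each 60 bases long, no pair shared a run longer than 8 bases. The probes LOC514373 and LOC513540 have GC contents of 41.7% and 40.0%.

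Between 68.8% and 84.0% of the spots on an array were well above background. Probes entered the tests where 22 or more of the 44 samples gave a Cy5 signal of 80 units or higher that exceeded background clearly, and 14690 probes met this, among them 7 of 7 member probes. The 7 probes have 2 spots each on 48 arrays, and of these 336 pairs of spots 325 gave both spots, 8 gave 1 and 3 gave none. The 3 without a value belonged to ISG15, UBA7 and LOC514373 on the first caruncular array of cyclic cow C7, whose repeat array supplied them. The intercaruncular ISG15 value of the same cow rests on 1 dim spot, with a signal of 10.8 units where the other 9 cyclic cows lay between 6832 and 10420 units in that tissue. Leaving this cow out changed the ISG15 difference by pregnancy from 2.48 to 2.43 in intercaruncular tissue. Scan dates split with tissue: 20 intercaruncular arrays were scanned first and 20 caruncular arrays second, and the last scan held both tissues of pregnant cow P11 and cyclic cow C8 with 4 repeat arrays. The epithelial and stromal marker lists were present in full, with 7 of 7 genes of each passing the filter. Smooth muscle markers were also measured (5 of 5).

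Every member probe was higher in the endometrium of pregnant cows, in both tissues. In caruncular tissue all 7 probes passed the threshold of 1.5-fold with an adjusted p below 0.05, against 5.77% of all probes tested that were called higher in pregnant cows. In intercaruncular tissue all 7 again passed, against 3.99% of all probes. The differences ran from 1.63 to 4.40 on the log2 scale in caruncular tissue and from 1.33 to 3.62 in intercaruncular tissue, while the median over all probes tested was -0.04 and -0.01 (limma with Benjamini-Hochberg adjustment over all probes).

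ISG15 itself lay between -3.51 and -1.95 in the caruncular tissue of the 10 cyclic cows, with a median of -2.87, and between -0.95 and 1.5 in that of the 12 pregnant cows, with a median of 0.37. The lowest pregnant cow was above the highest cyclic cow. The difference was 3.13 ± 0.26 (SE), or 8.75-fold with a 95% interval of 6.04 to 12.7, and its adjusted p was 6.15e-09 (limma). In intercaruncular tissue the cyclic cows lay between -3.54 and -2.17, with a median of -2.40, and the pregnant cows between -1.26 and 1.17, with a median of 0.10. These groups did not overlap either, and the difference was 2.48 ± 0.27 (SE), or 5.59-fold, with an adjusted p of 6.39e-07 (limma).

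UBA7, the E1 enzyme, followed the same order. Its caruncular level was between -2.35 and -1.82 in cyclic cows, with a median of -2.09, and between -0.71 and 1.61 in pregnant cows, with a median of 0.83. The difference was 2.60 ± 0.23 (SE), or 6.07-fold, with an adjusted p of 1.36e-08 (limma). In intercaruncular tissue cyclic cows lay between -2.28 and -1.74 and pregnant cows between -0.80 and 1.17, without overlap, and the difference was 2.20 ± 0.20 (SE), or 4.58-fold. The SD among cyclic cows was 0.14 in caruncular and 0.16 in intercaruncular tissue, and the SD among pregnant cows was 0.73 and 0.64.

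UBE2L6, the E2 enzyme, showed the smallest difference of the 7 probes. Caruncular cyclic cows lay between -1.68 and -0.90, with a median of -1.25, and pregnant cows between -0.29 and 0.87, with a median of 0.43, which made a difference of 1.63 ± 0.16 (SE), or 3.1-fold, with an adjusted p of 9.47e-08 (limma). In intercaruncular tissue the ranges were -1.45 to -0.53 and -0.55 to 1.02, and this was the only member whose groups touched, with 11 of 12 pregnant cows above every cyclic cow. The difference there was 1.33 ± 0.18 (SE), or 2.51-fold, with an adjusted p of 1.54e-05 (limma).

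USP18, which removes ISG15, showed the largest difference of the members. Caruncular cyclic cows lay between -3.87 and -3.48, with a median of -3.77 and an SD of 0.16, and pregnant cows between -0.86 and 2.06, with a median of 1.10 and an SD of 0.94. The difference was 4.40 ± 0.29 (SE), or 21.1-fold with a 95% interval of 14.0 to 31.8, the 8th highest of the 14690 probes tested, with an adjusted p of 1.18e-10 (limma). In intercaruncular tissue cyclic cows lay between -3.78 and -3.06 and pregnant cows between -0.97 and 1.07, again without overlap. The difference was 3.62 ± 0.22 (SE), or 12.3-fold, which ranked 6th among all probes.

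The 3 HERC probes, for the ligase step, also rose. LOC514373 (HERC5) went from a caruncular median of -2.07 in cyclic cows to 0.94 in pregnant cows, a difference of 2.83 ± 0.22 (SE) or 7.11-fold, and differed by 2.09 ± 0.15 (SE) or 4.25-fold in intercaruncular tissue. LOC527520 went from a median of -3.37 to 0.70, a difference of 3.81 ± 0.24 (SE) or 14.1-fold, and differed by 3.22 ± 0.17 (SE) or 9.32-fold in intercaruncular tissue. LOC513540 went from -1.88 to 1.44, a difference of 3.41 ± 0.18 (SE) or 10.6-fold, and differed by 2.08 ± 0.28 (SE) or 4.22-fold in intercaruncular tissue. In all 6 of these comparisons every pregnant cow was above every cyclic cow, and the adjusted p was at most 1.84e-05 (limma). Groups without overlap were not counted over all probes tested, so the separations given for the members are descriptions only.

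**Figure D1:**
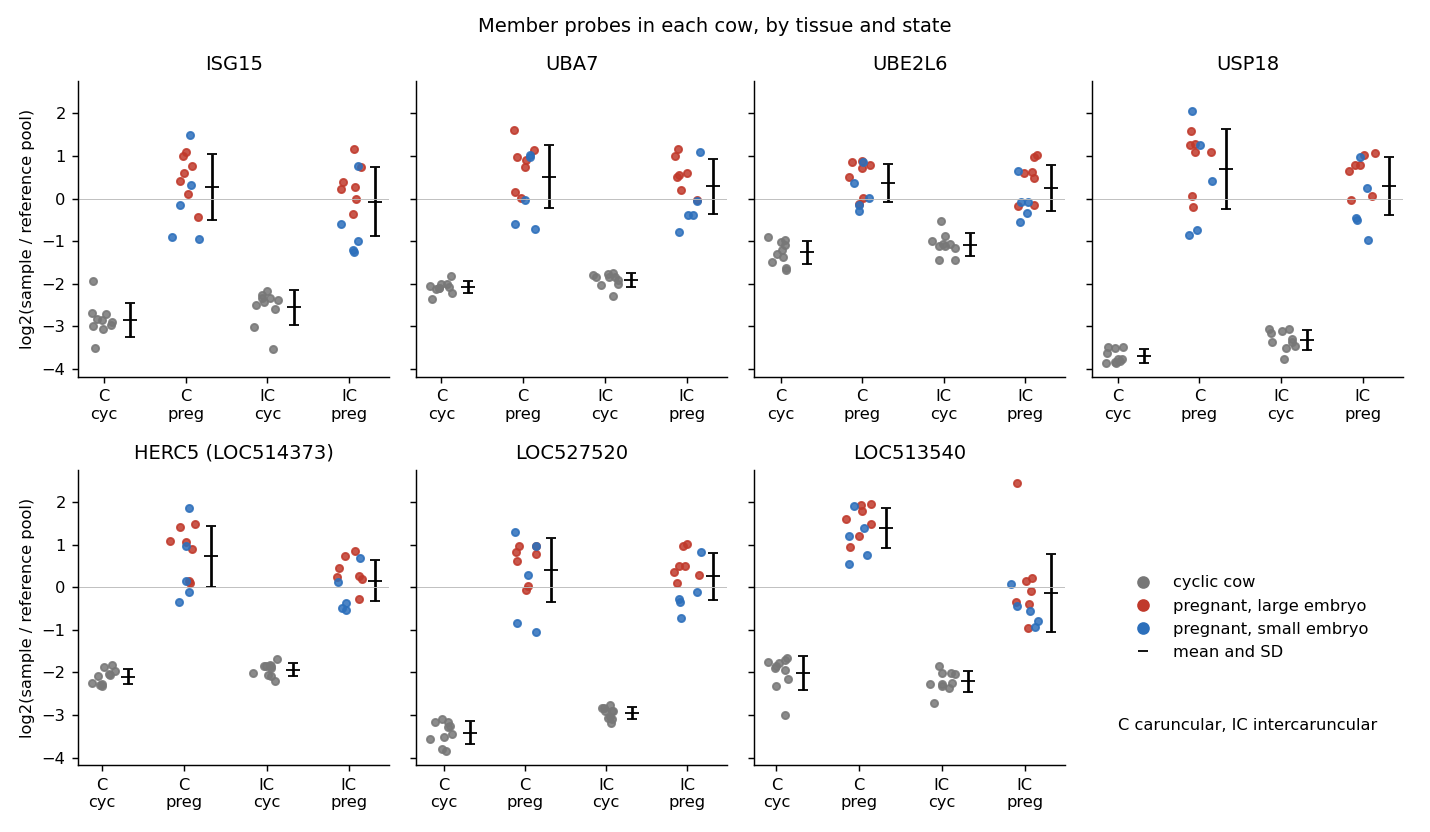
Log2 ratio of sample to reference pool (vertical axis) for the 7 member probes in each cow, by tissue and state, with each group's mean and SD as a bar beside its points and embryo size as the colour of the pregnant cows. Pregnant cows sit above cyclic cows of the same tissue in every panel except for 1 intercaruncular UBE2L6 value at -0.55, USP18 and LOC527520 are at or below -2.77 in all cyclic samples, and 1 intercaruncular point of LOC513540, at 2.45, stands apart from its group.

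**Figure D2:**
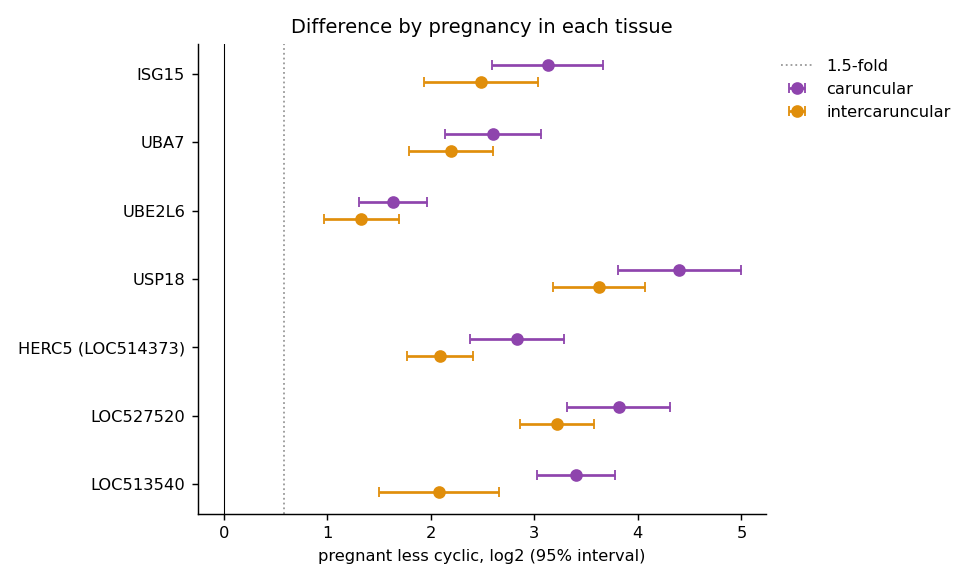
Difference between pregnant and cyclic cows on the log2 scale (horizontal axis) for each member probe in caruncular and intercaruncular endometrium, with 95% intervals from limma and the 1.5-fold threshold as a dotted line. All 14 intervals lie above the threshold, from UBE2L6 at 1.33 to USP18 at 4.40, and the caruncular value is the higher of each pair.

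Slide and scan date were checked because most slides held cows of 1 state. Within the second scan, with 11 pregnant and 9 cyclic caruncular samples, the 7 differences were 1.68 to 4.43, and within the first scan, with 11 pregnant and 9 cyclic intercaruncular samples, they were 1.36 to 3.59. Within the caruncular slide with 3 pregnant cows and 1 cyclic cow they were 1.20 to 4.01, and within the like intercaruncular slide 1.12 to 3.45. A fixed block for slide took each cow's slide from her first array. The comparison then rested on the 1 mixed slide of each tissue just described, with 1 cyclic cow. Its differences are those just given, so it is not a further check. In caruncular tissue 3 of 7 probes (USP18, LOC527520 and LOC513540) passed the threshold under that block, against 0.395% of all probes tested. ISG15 differed there by 2.70 ± 0.68 (SE) with an adjusted p of 0.121 (limma). In intercaruncular tissue 5 of 7 passed under that block, against 0.871% of all probes. ISG15 (adjusted p = 0.0619) and UBE2L6 (adjusted p = 0.228) did not pass there (limma).

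Cell type markers moved with pregnancy as well. The whole tissue was profiled, so a change in the number of cells of a type and a change in RNA per cell cannot be told apart. Of 13 leukocyte markers tested (15 listed), NKG7 and CSF1R were called higher in caruncular tissue (0.75 and 0.73) and CSF1R alone in intercaruncular tissue (0.61), and none was called lower. The mean log2 ratio, the summed level divided by the number of genes, of these 13 genes lay between -0.54 and 0.23 in caruncular cyclic samples and between -0.25 and 0.70 in caruncular pregnant samples, against -0.35 to 0.24 and -0.44 to 0.48 in intercaruncular tissue. Of the 5 smooth muscle markers 3 were called lower in each tissue, among them the contractile gene ACTA2 by 1.48 and 1.38. The 5 differences ran from -1.48 to 0.25 in caruncular and from -1.38 to 0.13 in intercaruncular tissue. The mean of these 5 markers lay between -0.34 and 1.06 in caruncular cyclic samples and between -1.30 and 0.49 in caruncular pregnant samples, against -0.93 to 0.86 and -1.49 to 0.22 in intercaruncular tissue. Of the 5 endothelial markers, PECAM1 and TEK were called lower in each tissue. Of the 7 stromal markers, COL3A1 was called lower in each tissue, and COL1A1 and COL1A2 in intercaruncular tissue alone (-1.01 and -0.84). The 7 stromal differences ran from -0.92 to 0.25 in caruncular tissue, where DCN (0.13) and LUM (0.25) were above 0, and from -1.32 to -0.035 in intercaruncular tissue. Of the 7 epithelial markers, the keratins KRT18 (-0.86) and KRT19 (-0.77) were called lower in caruncular tissue, and the junction genes CDH1 (1.03 and 0.71) and CLDN4 (0.95 and 1.10) higher in both tissues. FOXA2 (-1.06), KRT8 (-0.32) and EPCAM (-0.36) were also below 0 in caruncular tissue but not called. The 7 epithelial differences ran from -1.06 to 1.03 (median -0.36) in caruncular and from -0.33 to 1.10 (median 0.03) in intercaruncular tissue. The part of these shifts in the member differences was not tested. Of 9 trophoblast markers only PAG1 passed the filter, at 0.16 in caruncular and -0.33 in intercaruncular tissue, neither called. The probe for interferon tau (IFNT) was not well above background on any of the 48 arrays.

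The members were next compared between the tissues of the same state. For ISG15 the order of mean levels was caruncular cyclic (-2.85 ± 0.39 SD), intercaruncular cyclic (-2.56 ± 0.42), intercaruncular pregnant (-0.07 ± 0.81) and caruncular pregnant (0.28 ± 0.78). The first and last pairs of neighbours in that order were not called (adjusted p = 0.202 and 0.359, limma), and the middle step was the one between states. These tests do not use the cow. With a fixed block for cow the adjusted p was 0.0118 for the cyclic pair and 0.0987 for the pregnant pair, and with a random block 0.0277 and 0.165. UBA7, UBE2L6, USP18, LOC514373 and LOC527520 had the same order of means.

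In pregnant cows 1 of the 7 probes, LOC513540, was called between the tissues, against 17.0% of all probes tested. Its intercaruncular level lay between -0.96 and 2.45, with a median of -0.36, and its caruncular level between 0.56 and 1.96, with a median of 1.44. The caruncular level was higher by 1.53 ± 0.28 (SE), or 2.90-fold, with an adjusted p of 0.000107 (limma), and it was the higher in 11 of 12 cows. The exception was cow P11, at 2.45 in intercaruncular and 1.96 in caruncular tissue. LOC514373 was 0.57 ± 0.24 (SE) higher, or 1.49-fold with an adjusted p of 0.0481 (limma), just under the fold threshold. With a fixed block for cow USP18 also had an adjusted p under 0.05 (0.0289, limma), under 1.5-fold, but with a random block it did not (0.118, limma). The other 5 probes differed by 0.12 to 0.39 with adjusted p values from 0.321 to 0.686 (limma).

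In cyclic cows no member probe was called, against 11.9% of all probes tested. USP18 was lower in caruncular tissue by 0.38 ± 0.09 (SE) with an adjusted p of 0.00329 and LOC527520 by 0.46 ± 0.10 with an adjusted p of 0.00151 (limma), both under 1.5-fold. With a fixed block for cow all 7 probes had an adjusted p between 0.000536 and 0.042 (limma), still under 1.5-fold. Within cows, LOC527520 was lower in caruncular tissue in 10 of 10 cyclic cows, UBA7 in 10 of 10 and USP18 in 9 of 10. LOC513540 went the other way and was higher in caruncular tissue in 9 of 10, by 0.21 ± 0.14 (SE).

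The estimated difference by pregnancy was larger in caruncular tissue for 7 of 7 probes, by 0.30 to 1.33 on the log2 scale, but none passed the test of the interaction between state and tissue over all probes, of which 0.0204% did. LOC513540 had the largest estimate, 1.33 ± 0.34 (SE) with an adjusted p of 0.223, followed by USP18 at 0.78 ± 0.37 (adjusted p = 0.643) and LOC514373 at 0.74 ± 0.27 (adjusted p = 0.481, limma). That fit does not use the cow, although each cow gave both tissues, so its error includes the differences between cows. When a fixed replicate block for cow was added, these estimates, left at the same size, passed for LOC513540 (adjusted p = 0.00515), LOC514373 (0.0245) and USP18 (0.0363), while 1.02% of all probes did. With the cow as a random block LOC513540 (0.00221) and LOC514373 (0.0232) passed, and USP18 (0.0615) did not.

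Tissue and scan date cannot be told apart in 20 of the 22 cows. In the 2 cows whose tissues shared a scan, the caruncular less the intercaruncular level of LOC513540 was -0.49 (pregnant cow P11) and -0.28 (cyclic cow C8), the opposite sign to the other cows of their state. For ISG15 the values were -0.43 and 0.03, and for USP18 -0.25 and 0.02. The signal of the reference pool at LOC513540 had a median of 1665 units in the first scan, 1898 in the second and 2484 in the third. Its part in the tissue difference was not tested. Without these 2 cows the interaction of LOC513540 was 1.46 ± 0.22 (SE) with an adjusted p of 0.000359 (limma), and no other member passed.

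**Figure D3:**
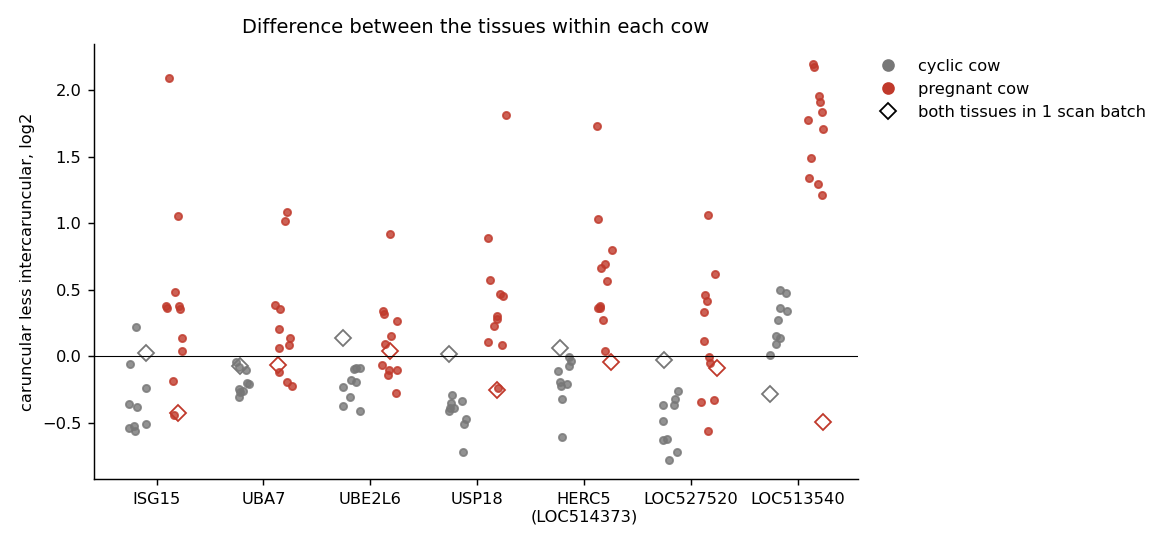
Caruncular less intercaruncular log2 ratio in each cow (vertical axis) for the 7 member probes, with cyclic cows in grey and pregnant cows in red and the 2 cows whose tissues were scanned together as open diamonds. LOC513540 is at 1.21 or higher in 11 pregnant cows and at -0.49 in the other, and the cyclic cows of USP18 and LOC527520 lie below or close to 0.

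Among the pregnant cows the levels of the members were correlated, LOC513540 less than the others. Over the 12 cows, Pearson's r between pairs of the 6 probes other than LOC513540 was between 0.84 and 0.97 in caruncular tissue (15 pairs, median 0.92) and between 0.90 and 0.97 in intercaruncular tissue (median 0.95). Between LOC513540 and the other 6 it was 0.47 to 0.75 in caruncular and -0.01 to 0.27 in intercaruncular tissue. Cow P11 stood apart for LOC513540 in intercaruncular tissue, at 2.45 where the next highest pregnant cow was at 0.22. The correlations between probes were not computed without her. They are descriptive, and the probes share arrays and cows. Averaged over the 7 probes, cow P2 was highest in caruncular tissue (1.38) and ninth in intercaruncular tissue (-0.18), and cow P3 was lowest in both (-0.48 and -0.82).

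The caruncular level of a cow was related to her intercaruncular level. Pearson's r over the 12 pregnant cows was between 0.62 (LOC513540) and 0.81 (USP18), and Spearman's rho between 0.60 (ISG15) and 0.81 (UBE2L6). For ISG15 r was 0.63 (permutation p = 0.0308, adjusted over 7 probes 0.0308) and rho 0.60 (permutation p = 0.042, adjusted 0.042). For USP18 r was 0.81 (permutation p = 0.00292, adjusted 0.00529) and rho 0.78 (permutation p = 0.00416, adjusted 0.00728). Across the 7 probes the adjusted p of r was at most 0.0308 and that of rho at most 0.042, two-sided with 100000 permutations. Cows P3 and P7 were farthest from the caruncular median for every probe, and without them r fell to 0.35 for ISG15, where the relation rested on these cows, and lay between 0.59 and 0.73 for the others. Without cow P11, whose arrays were scanned together, r was 0.66 to 0.82 over 11 cows. The pregnant cows were placed on slides in the same sets in both tissues, by first arrays. The permutations did not keep these sets, and the part of slide in this relation was not tested.

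Embryo size was compared within each tissue. In intercaruncular tissue 7 of 7 probes had the higher mean in cows with a large embryo, by 0.46 to 1.00, and none passed the test over all probes, of which 3.69% did. ISG15 was at -1.26, -1.20, -0.999, -0.59 and 0.77 in the 5 cows with a small embryo and between -0.37 and 1.17, with a median of 0.27, in the 7 with a large one. All but cow P8 of the first group were below every cow of the second. The difference was 1.00 ± 0.35 (SE), or 2.00-fold with a 95% interval of 1.18 to 3.38, and its adjusted p was 0.121 (limma). USP18 was at -0.97, -0.50, -0.46, 0.24 and 0.97 with a small embryo and between -0.03 and 1.07 with a large one, a difference of 0.77 ± 0.31 (SE) with an adjusted p of 0.177 (limma). Cow P8 ranked 2 to 4 among the 12 cows for each probe. Without her ISG15, UBA7, USP18 and LOC527520 passed, with adjusted p values of 0.0208, 0.0336, 0.0484 and 0.0264 (limma), and 644 of 14689 probes passed in all. Each pregnant cow was left out in turn, and only leaving out cow P8, whose own values go against the difference, gave member calls. Embryo size was spread unevenly over the intercaruncular slides. Small-embryo cows P2, P3 and P10 shared a slide with large-embryo cow P6. Cow P8 shared hers with large-embryo cows P1, P4 and P9. Size and slide are therefore partly confounded, and a fixed block for slide was not run for embryo size.

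In caruncular tissue the means were also higher with a large embryo for 7 of 7 probes, by 0.36 to 0.67, with adjusted p values of at least 0.754 (limma), and 0% of all probes passed (1014 of 14690 had an unadjusted p under 0.05). ISG15 was at -0.95, -0.90, -0.15, 0.33 and 1.5 with a small embryo and between -0.44 and 1.11 with a large one, so the small-embryo cows held both the lowest and the highest value. The 95% interval of that difference was -0.33 to 1.41 on the log2 scale, which includes the intercaruncular difference of 1.00. Whether the effect of embryo size differed between tissues was not tested. Cell type markers were compared by range as well. In intercaruncular tissue the mean of the 7 stromal markers lay between -0.53 and 0.24 with a large embryo and between -0.06 and 0.34 with a small one, that of the 5 endothelial markers between -0.65 and 0.07 and between -0.15 and 0.16, and that of the 5 smooth muscle markers between -1.49 and -0.29 and between -0.59 and 0.22. There the mean of the 13 leukocyte markers lay between -0.065 and 0.475 with a large embryo and between -0.438 and 0.391 with a small one. That of the 7 epithelial markers lay between -0.032 and 0.49 and between -0.277 and 0.101. For each of these lists the large-embryo and small-embryo ranges overlapped in both tissues. The part of these markers in the differences was not tested.

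By fertility label, 7 of 7 probes had the higher caruncular mean in fertile cows, by 0.27 to 1.18, and none passed over all probes (0% of all probes, 2024 of 14690 with an unadjusted p under 0.05, limma). USP18 had the largest difference: fertile cows lay between 0.42 and 2.06, with a median of 1.27, and sub-fertile cows between -0.86 and 1.26, with a median of -0.07. That difference was 1.18 ± 0.39 (SE), or 2.27-fold, with an adjusted p of 0.278 (limma), and 3 of 6 fertile cows were above every sub-fertile cow. ISG15 was 0.90 ± 0.34 (SE) higher in fertile cows, with an adjusted p of 0.307 (limma). In intercaruncular tissue 6 of 7 probes were higher in fertile cows by 0.39 to 0.55, none passed, and 0.0477% of all probes did. The exception, LOC513540, was lower by 0.53 ± 0.47 (SE), and by 0.07 without sub-fertile cow P11. Fertility label and slide are largely confounded in both tissues. By first arrays, fertile cows P1, P4, P8 and P9 shared a slide with no sub-fertile cow. Sub-fertile cows P5, P7 and P12 shared a slide with no fertile cow. Only the slide of fertile cows P2 and P10 and sub-fertile cows P3 and P6 held both labels. A fixed block for slide was not run for fertility.

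The labels for size and fertility crossed unevenly. The 2 cows that were sub-fertile and carried a small embryo, P3 and P7, held the lowest 2 caruncular values of each of the 7 probes, for example -0.86 and -0.74 for USP18. In intercaruncular tissue cow P3 was the lowest or second lowest of the 12 for every probe, and cow P7 ranked between eighth and eleventh. With embryo size as a covariate no member passed for fertility, and with fertility as a covariate LOC527520 passed for embryo size in intercaruncular tissue, at 0.76 with an adjusted p of 0.0493 (limma), and 4.79% of all probes did.

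**Figure D4:**
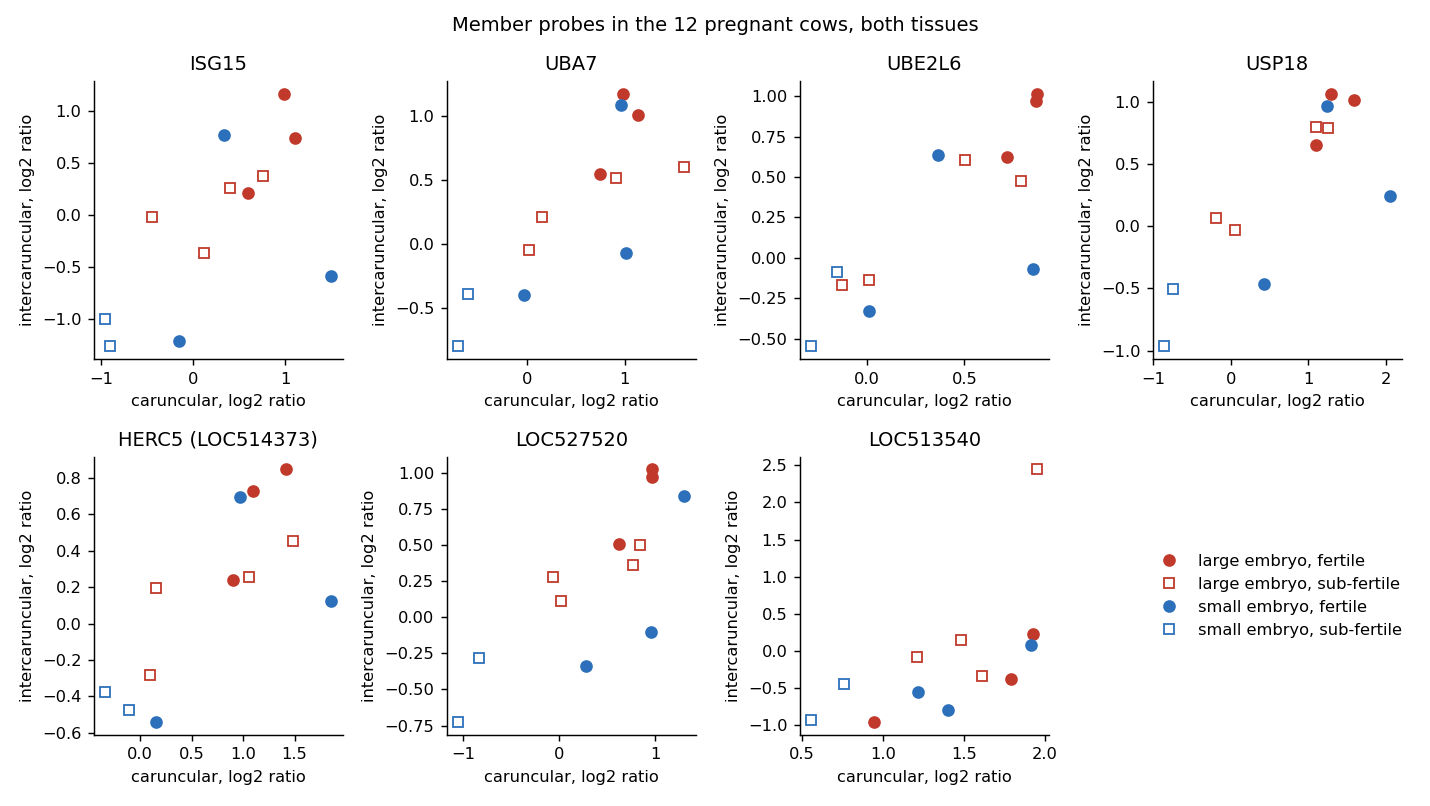
Intercaruncular against caruncular log2 ratio of each member probe in the 12 pregnant cows, with embryo size as colour and fertility label as symbol. The 2 cows with a small embryo and a sub-fertile label (open blue squares) lie at the low end of the caruncular axis in every panel, and 1 sub-fertile cow with a large embryo stands at 2.45 for LOC513540.

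Genes around the pathway were described from lists. Of the genes of type I interferon signalling, IRF9, a DNA-binding part of the ISGF3 complex, was 2.49 ± 0.15 (SE) higher in caruncular and 2.01 ± 0.13 higher in intercaruncular tissue, with adjusted p values of 5.57e-11 and 1.59e-10 (limma). The receptor chains IFNAR1 (-0.26 and -0.26) and IFNAR2 (-0.04 and -0.35) and the kinases JAK1 (-0.10 and -0.19) and TYK2 (-0.38 and -0.30) were not called. TYK2 in both tissues (0.000219 and 0.00332) and IFNAR2 in intercaruncular tissue (0.00744) passed the adjusted p but not the fold threshold (limma). STAT2, another part of ISGF3, did not pass the filter: its brightest probe was well above background on 7 of 13 caruncular and 2 of 12 intercaruncular arrays of pregnant cows and on none of cyclic cows.

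Among accessory enzymes, TRIM25, an antiviral ubiquitin ligase that can also act on ISG15 conjugation, was called at 1.67 ± 0.26 (SE) and 1.68 ± 0.32, with adjusted p values of 7.56e-05 and 0.000992 (limma). Its probe was well above background on 7 of 12 pregnant and 1 of 10 cyclic intercaruncular arrays, so the value there rests partly on dim spots. The ligases ARIH1 (0.08 and -0.19) and SKP2 (-0.23 and -0.08) and the conjugating enzymes UBE2E1 (-0.06 and 0.10) and UBE2E2 (-0.03 and -0.16) were not called. Of these, ARIH1 passed the adjusted p alone, in intercaruncular tissue (0.038, limma). For extracellular ISG15, the integrin chains ITGAL (0.31 and 0.06) and ITGB2 (0.42 and 0.31), which form its receptor on lymphocytes, were not called. ITGB2 passed the adjusted p alone, in caruncular tissue (0.0117, limma). IFNG, which extracellular ISG15 induces, did not pass the filter.

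Of 16 genes whose proteins are known ISG15 substrates, 5 were called higher in caruncular and 4 in intercaruncular tissue, and none lower. The largest differences were those of DDX58, the RNA sensor RIG-I, at 4.08 ± 0.24 (SE) and 3.14 ± 0.19, of the antiviral GTPase MX1, at 3.28 ± 0.21 and 2.50 ± 0.17, and of the kinase EIF2AK2, at 3.27 ± 0.19 and 2.63 ± 0.17. CHMP5 (0.79 and 0.70) and, in caruncular tissue alone, IRF3 (1.09, against 0.41 with an adjusted p of 0.111 in intercaruncular tissue) were the others, and the interaction with tissue was called for neither. The median of the list was 0.09 and 0.20, and the 11 substrates called in neither tissue lay between -0.47 and 0.39.

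The parallel machinery of ubiquitin and of other ubiquitin-like proteins gave few calls. None of 9 other activating enzymes was called in either tissue (range -0.53 to 0.24), and none of 12 other modifiers was (-0.33 to 0.55). Of 29 other conjugating enzymes, UBE2J1, of the endoplasmic reticulum, was called in caruncular tissue (0.80 ± 0.17 SE, adjusted p = 0.00162, limma) and none in intercaruncular tissue. Of 35 other ubiquitin-specific proteases, USP25 was called higher in each tissue (1.30 ± 0.13 and 1.06 ± 0.15) and USP2 lower in caruncular tissue, where it fell by 0.70 on the log2 scale. HERC2 (-0.34 and -0.15) and HERC4 (0.03 and 0.07) were not called, and HERC2 passed the adjusted p alone, in caruncular tissue (0.00274, limma). HERC1 did not pass the filter, and HERC3 was not analysed here. The medians of these lists lay between -0.155 and 0.083, beside 3.13 and 2.20 for the 7 member probes.

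**Figure D5:**
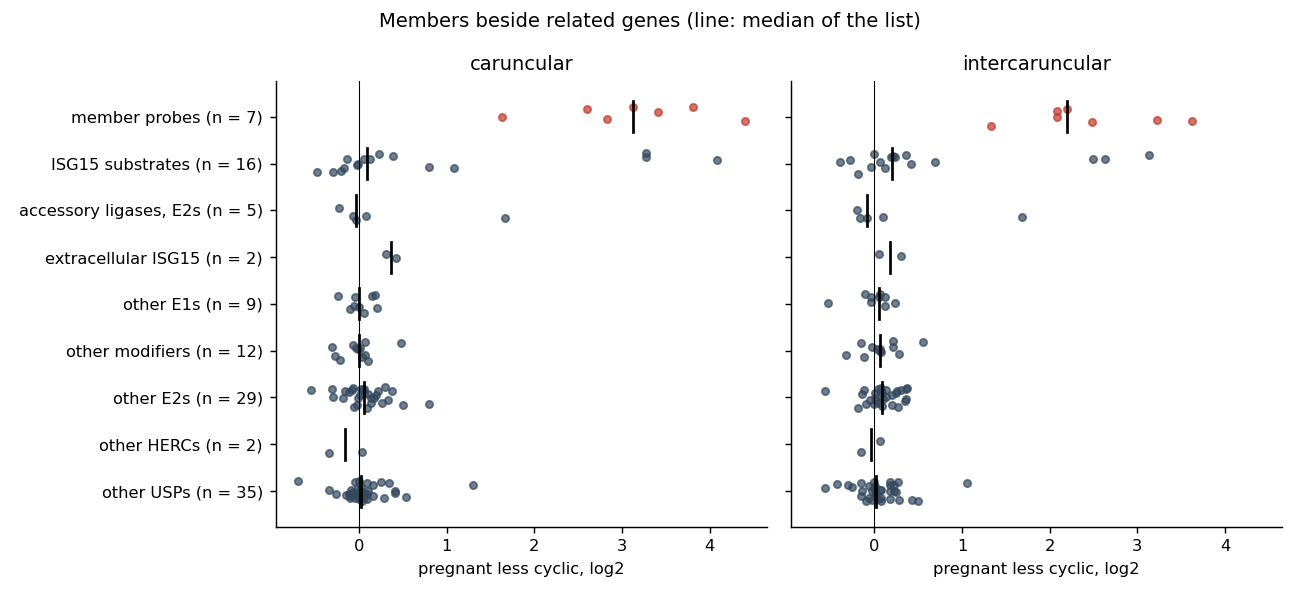
Difference between pregnant and cyclic cows on the log2 scale (horizontal axis) for the member probes in red and for lists of related genes in dark blue, 1 point per probe, in each tissue, with the median of each list as a line. The members lie between 1.33 and 4.40, the lists of other E1s, modifiers and HERCs stay between -0.53 and 0.55, and TRIM25, USP25 and a few substrates are the points of the other lists beyond 1.

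The genes most like ISG15 were ranked by Pearson's r with its probe over the 44 samples, as a description. The highest of 12397 named probes outside the members were PML (0.981), TREX1 (0.978), ISG20 (0.977), OAS2 (0.977) and IRF9 (0.977), where the median over all of them was -0.05. These values hold the step between pregnant and cyclic cows. With each group's mean taken off, the highest were ISG20 (0.894), TREX1 (0.892), IFIT3 (0.877), IRF9 (0.876) and PML (0.876), and the members USP18 (0.878), UBA7 (0.860), LOC527520 (0.804), LOC514373 (0.758) and UBE2L6 (0.727) were in or below that range. LOC513540 was lowest of the members, at 0.408, with the outlying intercaruncular value of cow P11 (2.45) included.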

How the data were processed

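The authors extracted spot intensities with Agilent Feature Extraction, which subtracted background, flagged outlying spots and normalised the dyes by LOWESS, and deposited log10 ratios of Cy5 to Cy3 per spot, per the file headers. The deposited intensity values (processed Cy5 signals) served to filter probes. The software version differs between headers and methods. The authors' deposited matrix of log2 ratios served as an alternative (r with the scanner values at least 0.982) and held 14478 of the tested probes. The dyes were not swapped, and the lowest correlation between 2 arrays was -0.41.

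Log10 ratios were taken to log2, averaged over unflagged spots and centred on each array's median. The 4 repeat caruncular arrays were averaged with the first, so the cow is the replicate. The 7 member probes differed by at most 0.54 between such arrays, with a median of 0.18. Groups were compared with limma 3.58.1 in R 4.3.3 and Benjamini-Hochberg adjustment over all probes tested. Pregnancy and tissue differences were called at 1.5-fold and an adjusted p below 0.05, the others at the adjusted p alone. Correlations between tissues were tested by permutation (scipy 1.17.1). The cow paired the tissues: deviations of the 2 samples of a cow from their group means correlated at 0.11 to 0.87 (22 of 22 cows over 0.1, median 0.61). The number of arrays limits the precision. The limma step was tested on simulated data.

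The 7 member probes and the gene lists were chosen with earlier results of these data known, and the 2 probes added by RefSeq number were added with their values known. Named genes were all members, all genes of the short lists (accessory enzymes, interferon signalling, extracellular, other HERCs; 1 result is not reported here), the 3 largest called differences in caruncular tissue of the other lists, and the 5 genes most like ISG15 by each measure. A gene with several probes was read from the brightest, and levels are not comparable between probes. CHMP5 and IRF3 were named after their values were seen.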

Additional observations from a re-analysis of the deposited data

Results flagged for a closer look

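The lowest and highest cows of the cyclic, large-embryo, small-embryo, fertile and sub-fertile groups were checked for a gap from the rest of their group, in 70 groups of 5 to 10 cows over the 7 probes and both tissues. Chance alone sets apart about 1 in 20 such groups, and 5 stood apart. LOC513540 in intercaruncular tissue of pregnant cow P11 was 2.45, where the next highest cow with a large embryo was 0.22 and the next highest sub-fertile cow 0.14, so it stood apart in both groups. LOC513540 in caruncular tissue of cyclic cow C8 was -3.00, where the next lowest cyclic cow was -2.31. These 2 cows are the ones whose tissues shared the last scan. ISG15 in caruncular tissue of cyclic cow C5 was -1.95, where the next highest cyclic cow was -2.70. UBA7 in caruncular tissue of fertile cow P10 was -0.034, where the next lowest fertile cow was 0.75.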

How the results depend on the processing

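The 7 member probes remained above 0 by pregnancy in both tissues under every alternative run (other background correction and normalisation, no centring, other filters, the deposited matrix, either array of a repeated pair, the methods' t-test, blocks and leaving out cows). The number called stayed at 7 except with slide as a fixed block, where 3 were called in caruncular and 5 in intercaruncular tissue. Few slides held both states, and over all probes that block gave 58 calls against 1467 in caruncular tissue and 128 against 1064 in intercaruncular tissue (653 with slide as a random block). For the interaction, a fixed replicate block for cow gave 3 member calls, a random one 2 and leaving out cows P11 and C8 gave 1, against 0. The calls over all probes were then 150, 425 and 108, against 3, and they were 11 without a filter and 6 with the repeat array alone. In the tissue comparisons the cow block lowered adjusted p values but changed no member call at 1.5-fold.

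Within the last scan, with 1 cow of each state, most signs turned. The interaction was then -0.45 for ISG15, -0.10 for UBE2L6, -0.27 for USP18, -0.11 for LOC514373, -0.064 for LOC527520 and -0.21 for LOC513540. Caruncular less intercaruncular levels in the pregnant cow were -0.43 for ISG15, -0.0636 for UBA7, -0.25 for USP18, -0.0404 for LOC514373, -0.0896 for LOC527520 and -0.49 for LOC513540. In the cyclic cow they were 0.0253 for ISG15, 0.14 for UBE2L6, 0.0174 for USP18, 0.0667 for LOC514373 and -0.28 for LOC513540. The interaction of UBA7 kept its sign, at 0.0095, and so did the difference of UBE2L6 in the pregnant cow, at 0.041. UBA7 (-0.0731) and LOC527520 (-0.0256) kept theirs in the cyclic cow. The cause was not tested, and single cows carry no error.

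For embryo size in intercaruncular tissue, leaving out each pregnant cow in turn gave 0 to 4 member calls, the 4 without cow P8, and fertility as a covariate gave 1. Over all probes, 542 calls became 34 to 1882 when a cow was left out (1882 without cow P11), 319 without a filter and 876 with slide as a random block. For fertility in intercaruncular tissue, 7 calls became 3 to 43 when a cow was left out, 4 without a filter and 3 with slide as a random block, and in caruncular tissue 0 became 0 to 2. No member was called for embryo size in caruncular tissue or for fertility under any alternative (0 to 0 over the cows left out). The alternatives that centred on tested probes, used the last scan date, or left out its cows or cow C7 were chosen after seeing the data. Groups of 5 to 7 cows and signals near background for dim probes such as TRIM25 in intercaruncular tissue limit these comparisons.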
